A study of Homo sapiens with 12 samples.

Results

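E2F transcription factors and the pocket proteins that hold them in check decide when a cell leaves G1 and copies its DNA. Each classical E2F protein pairs with a DP partner on the DNA. E2F1, E2F2 and E2F3 are known as activators of genes for S phase. E2F4 and E2F5 are known mainly as repressors that work with the pocket proteins p107, encoded by RBL1, and p130, encoded by RBL2. E2F6 represses through Polycomb complexes and does not bind pocket proteins. E2F7 and E2F8, the atypical members, bind DNA without a DP partner and repress E2F genes, including E2F1, once S phase is under way. Cyclin D and cyclin E kinases release E2F from the pocket proteins, and in mantle cell lymphoma a chromosome translocation drives the cyclin D1 gene. In quiescent cells p130 joins E2F4, a DP protein and the MuvB core to form the DREAM complex, which represses genes of both G1/S and G2/M.

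The 10 genes described here are E2F1 to E2F8, RBL1 and RBL2, chosen by gene name from the 64253 rows of the deposited count table. All 10 passed the filter on low counts, among 19460 genes tested. RNA was taken from the JEKO-1 line, human cells of a mantle cell lymphoma, after 48 h in 1 of 4 conditions. These were KPT-330 together with choline salicylate (CS), KPT-330 alone, CS alone, and DMSO as the control, with 3 libraries each. KPT-330, also called selinexor, blocks the nuclear export receptor XPO1, and choline salicylate is a salt of salicylic acid. The labels give a range of concentrations for the study's experiments and none for these libraries, and they leave unsaid whether each library had its own culture, which limits every p-value to the spread between libraries.

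Libraries held 35325563 to 59490178 counts, and the 10 genes had 877 to 9794 reads each in any library. Levels are given in CPM, the read count scaled to a common library size with TMM factors, and comparisons between genes are made only per kilobase of exon. The 9 B cell and mantle cell lymphoma markers summed to 3004 to 3167 CPM in KPT-330+CS, 3018 to 3062 in KPT-330, 2501 to 2821 in CS and 2179 to 2475 in DMSO, with none at 0. Of these markers CD5 was low, at 1.85 ± 0.278, 4.54 ± 0.754, 2.31 ± 0.347 and 3.7 ± 0.981 CPM in the same order (SD, n = 3 each). The T cell, myeloid, and stromal and epithelial lists summed to at most 4, 5.63 and 6.33 CPM in any library. In bulk RNA fewer cells of one kind and less RNA per cell cannot be told apart.

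The proximal promoters of 4 of the genes held the E2F motif itself. The letters searched were TTTGGCGC, TTTCCCGC, TTTCGCGC and TTTGCCGC on both strands, in windows that run from 250 bases before to 50 bases after each RefSeq start on GRCh38.p14. At least 1 of the 4 motifs was in 3.31% of 35116 windows of all genes. E2F1 had 2 matches, E2F2 had 1, the first window of E2F3 had 1, and RBL1 had 2. E2F4, E2F6, E2F7, the second window of E2F3 and both windows of RBL2 had none of these letters. No window was used for E2F5 or E2F8. The 120 bases around the matches are shown on the gene's strand, 5′ to 3′, with the matched letters in capitals, at chr20:33686386-33686505 for E2F1, chr1:23531234-23531353 for E2F2, chr6:20401759-20401878 for E2F3 and chr20:37095998-37096117 for RBL1.
E2F1: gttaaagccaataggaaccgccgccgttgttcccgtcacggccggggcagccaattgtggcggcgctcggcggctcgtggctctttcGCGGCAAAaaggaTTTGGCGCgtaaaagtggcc
E2F2: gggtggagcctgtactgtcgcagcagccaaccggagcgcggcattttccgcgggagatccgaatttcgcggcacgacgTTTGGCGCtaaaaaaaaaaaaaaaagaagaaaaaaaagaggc
E2F3: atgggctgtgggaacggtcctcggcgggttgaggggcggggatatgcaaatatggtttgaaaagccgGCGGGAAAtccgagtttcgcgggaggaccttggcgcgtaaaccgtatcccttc
RBL1: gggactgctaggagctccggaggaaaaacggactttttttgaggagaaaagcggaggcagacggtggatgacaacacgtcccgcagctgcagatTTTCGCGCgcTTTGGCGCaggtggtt
A match describes letters only and was not tied to binding or to a response.

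With both drugs together, 7 of the 10 genes fell and 2 rose against DMSO. E2F8 and E2F2 fell most, to 0.392 and 0.41 of their DMSO levels, followed by E2F3, RBL1, E2F6, E2F4 and E2F1, while RBL2 and E2F5 rose. KPT-330 alone gave smaller falls for E2F2, E2F3, E2F8 and RBL1, a fall of E2F6, and a higher E2F1. CS alone left 9 of the 10 genes short of the threshold. A gene counts as called where edgeR's quasi-likelihood test gave an adjusted p (Benjamini-Hochberg, over all tested genes) up to 0.05. Against DMSO, 55.5% of all tested genes were called with KPT-330+CS, with 29.3% higher and 26.2% lower. The corresponding background was 48.5% for KPT-330, with 24.7% higher and 23.8% lower, and 8.88% for CS, with 3.76% higher and 5.13% lower. The median log2 fold change of the 10 genes was -0.64 for KPT-330+CS, -0.20 for KPT-330 and 0.06 for CS, against 0.04, 0.04 and -0.01 over all tested genes. Libraries did not overlap DMSO for 9 of the 10 genes in KPT-330+CS, 8 in KPT-330 and 1 in CS, against 56.7%, 57.7% and 22.7% of all tested genes. The 3 comparisons share their DMSO libraries.

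**Figure D1:**
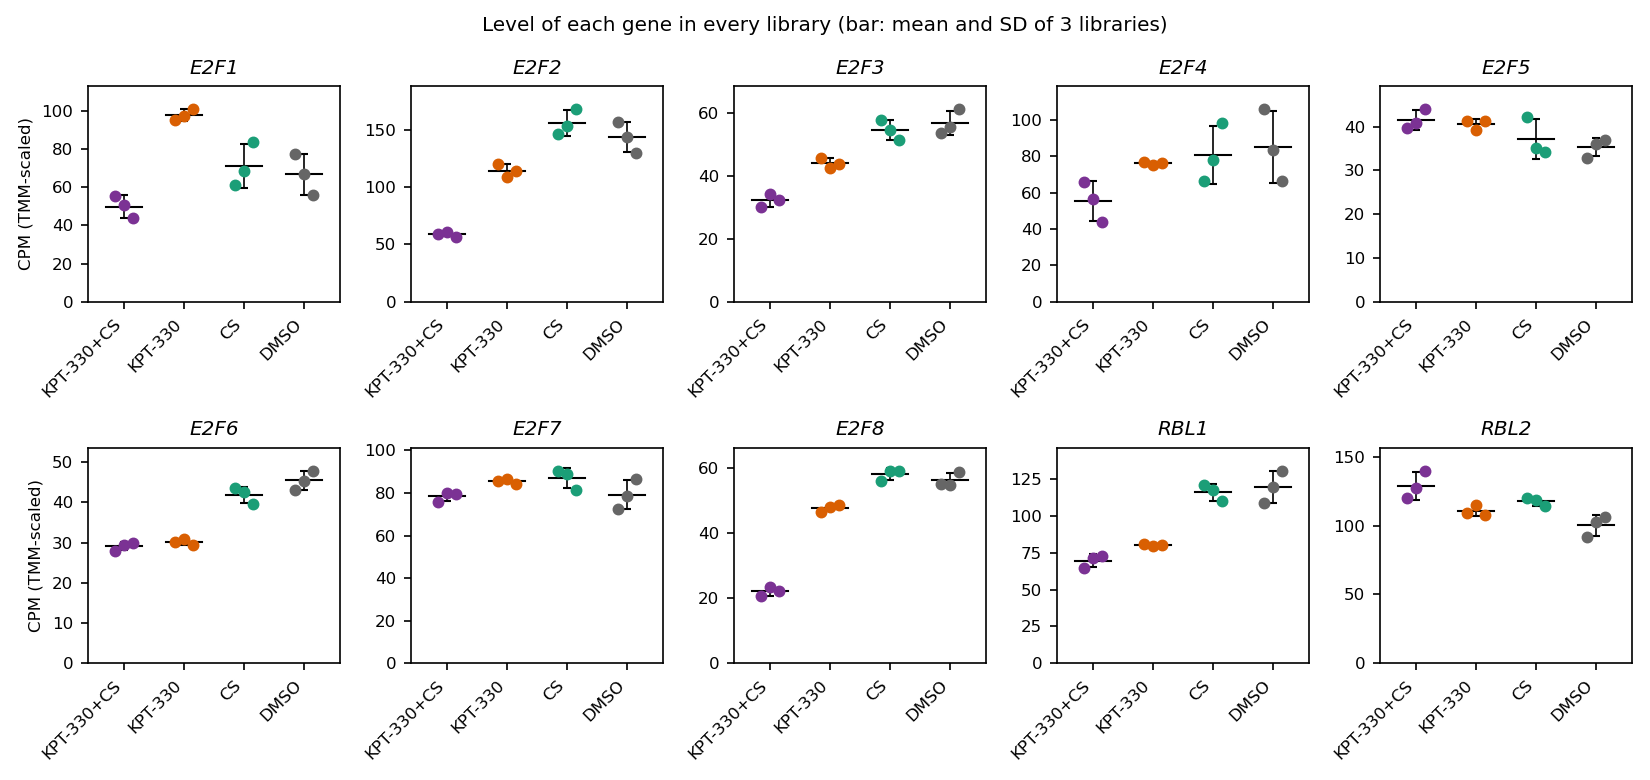
Expression of each of the 10 genes in CPM (vertical axes, each starting at 0) in the 3 libraries of KPT-330+CS, KPT-330, CS and DMSO; points are libraries and bars are means with SD. E2F8 lies between 20.5 and 23.4 CPM in KPT-330+CS and between 54.6 and 58.7 in DMSO, while E2F7 overlaps between those groups.

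E2F8, an atypical repressor, had 20.5, 23.4 and 22.2 CPM in KPT-330+CS, 46.5, 48 and 48.4 in KPT-330, 55.8, 59.1 and 59 in CS, and 54.9, 54.6 and 58.7 in DMSO. The KPT-330+CS libraries lay below every other library, and the KPT-330 libraries lay between them and the rest. The log2 fold change of KPT-330+CS against DMSO was -1.35 ± 0.06 (SE; edgeR quasi-likelihood test, adjusted p = 1.45e-09). KPT-330 alone lowered E2F8 by a log2 fold change of -0.24 ± 0.06 (adjusted p = 0.00577), and CS gave 0.05 ± 0.06 (adjusted p = 0.718). Scaled by library size alone, the KPT-330 difference was -0.08 (adjusted p = 0.261).

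E2F7, the other atypical gene, was not called against DMSO where E2F8 fell. E2F7 averaged 78.4 ± 2.4 CPM in KPT-330+CS, 85.5 ± 1.01 in KPT-330, 87 ± 4.79 in CS and 79.2 ± 6.93 in DMSO (SD, n = 3 each), and its KPT-330+CS and DMSO libraries overlapped. Its log2 fold change for KPT-330+CS against DMSO was -0.01 ± 0.06 (adjusted p = 0.866), and 0.17 (adjusted p = 0.0136) when libraries were scaled by size alone. KPT-330 alone gave 0.11 ± 0.06 (adjusted p = 0.178), or 0.23 (adjusted p = 6.42e-06) after a correction for GC content fitted over all genes. The KPT-330+CS libraries of E2F7 lay below all its KPT-330 and CS libraries. Against KPT-330 the log2 fold change was -0.12 ± 0.06 (edgeR, adjusted p = 0.149), or -0.24 (adjusted p = 4.34e-06) after that correction. Against CS it was -0.15 ± 0.06 (adjusted p = 0.0745), or -0.17 (adjusted p = 0.00018) after the correction. Per kilobase, the E2F8 level was 0.427 ± 0.017 of the E2F7 level in KPT-330+CS, 0.849 ± 0.0228 in KPT-330, 1.02 ± 0.0816 in CS and 1.08 ± 0.0633 in DMSO. The 3 ratios of KPT-330+CS, 0.412 to 0.446, were below all 9 others. E2F8 ranked last of the 10 genes per kilobase in KPT-330+CS, at 5.32 CPM per kb, and had 6 as its rank in DMSO, at 13.5.

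Among the activators, E2F2 had 59.5, 60.7 and 56.8 CPM in KPT-330+CS, 120, 109 and 114 in KPT-330, 146, 153 and 168 in CS, and 157, 144 and 130 in DMSO. The groups KPT-330+CS, KPT-330 and the remaining pair did not overlap, and CS overlapped DMSO. The log2 fold change against DMSO was -1.29 ± 0.07 for KPT-330+CS (adjusted p = 1e-08) and -0.33 ± 0.07 for KPT-330 (adjusted p = 0.00213), both from edgeR's quasi-likelihood test. With library size alone as the scale, the KPT-330 value was -0.17 (adjusted p = 0.0933), and after the GC correction it was -0.66 (adjusted p = 3.78e-05). CS gave 0.12 ± 0.07 (adjusted p = 0.379).

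E2F3 had 30.2, 34.1 and 32.2 CPM in KPT-330+CS, 45.7, 42.6 and 43.8 in KPT-330, 57.8, 54.5 and 51.5 in CS, and 53.7, 55.4 and 61.2 in DMSO. It fell in the same order as E2F2 but less, with all KPT-330+CS libraries below all KPT-330 libraries and these below the other 6. The log2 fold change against DMSO was -0.82 ± 0.07 for KPT-330+CS (edgeR, adjusted p = 4.15e-07) and -0.37 ± 0.07 for KPT-330 (adjusted p = 0.000701), and CS gave -0.06 ± 0.07 (adjusted p = 0.71).

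E2F1, the activator that also has a known part in cell death, moved in opposite directions with the combination and with KPT-330 alone. It had 55.4, 50.7 and 43.7 CPM in KPT-330+CS, 95.2, 97.5 and 101 in KPT-330, 61, 68.7 and 84 in CS, and 77.5, 66.8 and 56 in DMSO. KPT-330 libraries were above all others and KPT-330+CS libraries were below all others. The log2 fold change against DMSO was 0.55 ± 0.13 for KPT-330 (edgeR quasi-likelihood test, adjusted p = 0.00289), -0.42 ± 0.13 for KPT-330+CS (adjusted p = 0.0126) and 0.09 ± 0.13 for CS (adjusted p = 0.738).

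The E2F1 difference between KPT-330 and DMSO went together with how each library's counts varied with GC content. E2F1 exons are 61.6% GC, the highest of the 10 genes, with E2F4 at 59.3% and E2F2 at 57.4%, and RBL1 and E2F5 lowest at 40.0% and 38.3%. A library's GC slope, the log2 deviation of its genes from their means per 10 points of GC content, was -0.15 to 0.128 in KPT-330+CS, 0.195 to 0.228 in KPT-330, -0.229 to 0.059 in CS and -0.314 to 0.087 in DMSO. All KPT-330 slopes lay above those of every other library, so slope and treatment cannot be told apart there. For every gene, the GC correction would also remove a drug effect that follows GC content. After the same correction for GC content, E2F1 averaged 49.3 ± 3.3 CPM in KPT-330+CS, 75.8 ± 1.01 in KPT-330, 77.6 ± 3.42 in CS and 75.9 ± 7.37 in DMSO, and the KPT-330 log2 fold change was 0.00 (adjusted p = 0.981). The fall with KPT-330+CS was -0.62 on that scale (adjusted p = 2.33e-06). Without correction it lost its call in 5 of 23 alternatives, among them leaving out KPT-330+CS replicate 3 (-0.33, adjusted p = 0.0537) or DMSO replicate 1 (-0.30, adjusted p = 0.0868).

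**Figure D2:**
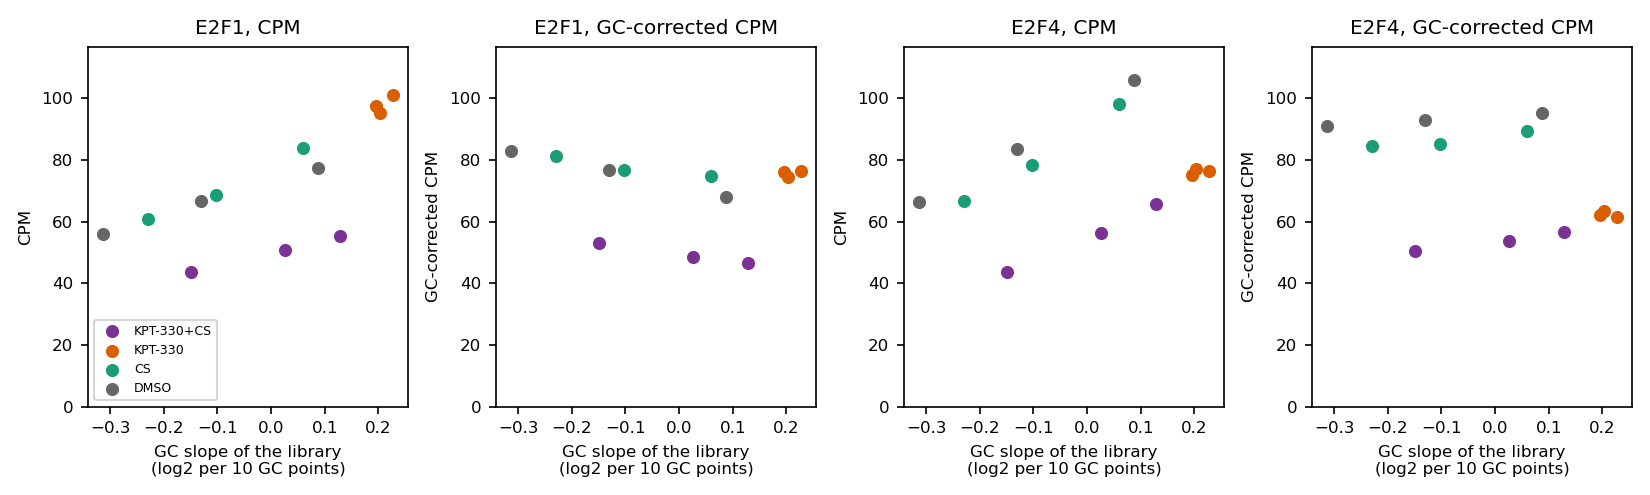
E2F1 and E2F4 in each library against that library's GC slope (horizontal axes, log2 per 10 GC points), as CPM and as CPM after the correction for GC content (vertical axes from 0); each point is 1 library, coloured by group. Before correction both genes are higher in libraries of higher slope within KPT-330+CS, CS and DMSO; after it the KPT-330 libraries meet CS and DMSO for E2F1 and lie below them for E2F4.

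E2F4, the main E2F of the repressor complexes, was lower in the combination, with a wide spread in 3 of the groups. It had 65.7, 56.3 and 43.7 CPM in KPT-330+CS, 77, 75.2 and 76.5 in KPT-330, 66.6, 78.2 and 98.1 in CS, and 106, 83.5 and 66.5 in DMSO. KPT-330+CS lay below DMSO in all libraries, with its highest at 65.7 and the lowest DMSO library at 66.5. The log2 fold change was -0.63 ± 0.17 for KPT-330+CS (edgeR, adjusted p = 0.00759), a call lost in 3 of 23 alternatives, and without DMSO replicate 1 it was -0.45 (adjusted p = 0.0722). KPT-330 gave -0.16 ± 0.17 (adjusted p = 0.457). After the GC correction the within-group spread narrowed, to 53.6 ± 3.09, 62.4 ± 0.91, 86.3 ± 2.75 and 93.1 ± 2.21 CPM in KPT-330+CS, KPT-330, CS and DMSO, and the KPT-330 value was -0.58 (adjusted p = 3.13e-10).

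E2F5, the other repressor of this class, averaged 41.5 ± 2.27 CPM in KPT-330+CS, 40.6 ± 1.21 in KPT-330, 37.1 ± 4.45 in CS and 35.3 ± 2.13 in DMSO (SD, n = 3 each). All KPT-330+CS and KPT-330 libraries lay above all DMSO libraries. The rise with KPT-330+CS was 0.23 ± 0.08 on the log2 scale (edgeR, adjusted p = 0.0279) and lost its call in 6 of 23 alternatives, 4 of which left out 1 library: KPT-330+CS replicate 2 or 3, or DMSO replicate 1 or 2, with 0.18 to 0.25. KPT-330 gave 0.20 ± 0.08 (adjusted p = 0.0583), passed in 7 of 23 alternatives, and stood at 0.37 (adjusted p = 5.59e-06) after the GC correction. E2F5 shares 997 exon bases with RBIS on the opposite strand, and the library kit does not mark strand, so reads of the pair cannot be told apart there. RBIS had 26554 reads in the 12 libraries against 22611 for E2F5, and its log2 fold changes were -0.27 ± 0.11 with KPT-330+CS (adjusted p = 0.06) and -0.50 ± 0.11 with KPT-330 (adjusted p = 0.00303).

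E2F6, which recruits Polycomb repressors, followed KPT-330 and did not pass the test for a further change with CS. It had 27.9, 29.5 and 30 CPM in KPT-330+CS, 30.1, 30.9 and 29.4 in KPT-330, 43.5, 42.5 and 39.5 in CS, and 43.2, 45.3 and 47.9 in DMSO. The 6 libraries with KPT-330 lay below the 6 without it. The log2 fold change against DMSO was -0.64 ± 0.06 for KPT-330+CS (edgeR, adjusted p = 1.48e-06) and -0.59 ± 0.06 for KPT-330 (adjusted p = 6e-06). KPT-330+CS against KPT-330 gave -0.05 ± 0.06 (adjusted p = 0.565), or -0.16 (adjusted p = 0.00259) after the GC correction.

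With both drugs the pair of pocket protein genes moved apart. RBL1 had 64.6, 71.6 and 73.2 CPM in KPT-330+CS, 80.8, 80 and 80.7 in KPT-330, 121, 118 and 110 in CS, and 109, 120 and 131 in DMSO. The 6 libraries with KPT-330 were all below the 6 without it, and CS overlapped DMSO. RBL1 fell by 0.78 on the log2 scale with KPT-330+CS (SE 0.07; edgeR, adjusted p = 7.26e-07) and by 0.58 with KPT-330 (SE 0.07, adjusted p = 2.15e-05).

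RBL2 had 120, 127 and 140 CPM in KPT-330+CS, 109, 115 and 108 in KPT-330, 120, 119 and 114 in CS, and 91.8, 103 and 106 in DMSO. Every treated library was above every DMSO library. RBL2 rose by 0.36 ± 0.07 with KPT-330+CS (log2; edgeR, adjusted p = 0.000499), a call kept in all 23 alternatives at 0.30 to 0.55. KPT-330 alone gave 0.14 ± 0.07 (adjusted p = 0.112), or 0.26 (adjusted p = 1.13e-06) after the GC correction. CS alone gave 0.23 ± 0.07 (adjusted p = 0.049), the single call among the 10 genes in that comparison, and 14 of 23 alternatives lost it at 0.17 to 0.28. Among these, a fit of the CS and DMSO libraries alone gave 0.26 (adjusted p = 0.107). RBL2 shares 609 exon bases with AKTIP on the opposite strand, whose 9818 reads compare with 66962 for RBL2 and whose log2 fold change with KPT-330+CS was 0.42 ± 0.11 (adjusted p = 0.00429).

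Set against each other per kilobase, the RBL2 level was 1.5 ± 0.0565 of the RBL1 level in KPT-330+CS, 1.11 ± 0.0443 in KPT-330, 0.825 ± 0.0144 in CS and 0.681 ± 0.0212 in DMSO (SD, n = 3 each). The libraries of the 4 groups did not overlap in this ratio, which was above 1 in the 6 libraries with KPT-330 and below 1 in the 6 without. RBL1 and RBL2 exons have similar GC content, at 40.0% and 43.1%. The E2F1 level was 1.21 ± 0.105 of the E2F4 level in KPT-330+CS, 1.7 ± 0.0564 in KPT-330, 1.17 ± 0.0406 in CS and 1.05 ± 0.0744 in DMSO. The KPT-330 libraries, at 1.64 to 1.75, lay above the rest.

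**Figure D3:**
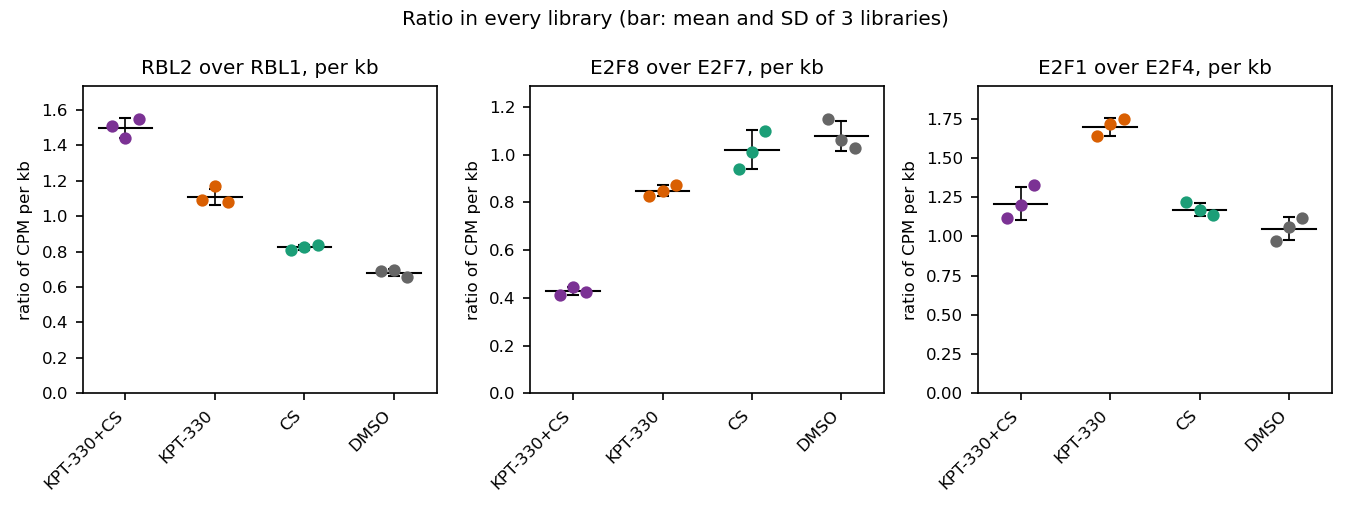
Ratios of levels per kilobase within each library (vertical axes from 0) for RBL2 over RBL1, E2F8 over E2F7 and E2F1 over E2F4, in KPT-330+CS, KPT-330, CS and DMSO; points are libraries and bars are means with SD. RBL2 over RBL1 separates all 4 groups, at 1.5 with KPT-330+CS and 0.681 with DMSO.

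Per kilobase the order of the genes changed with treatment. In KPT-330+CS the highest were E2F1, RBL2 and E2F4, at 18.5 ± 2.18, 17.6 ± 1.39 and 15.4 ± 3.08 CPM per kb, and neighbours in this order overlapped down to E2F2, at 10.8 ± 0.365. In KPT-330 E2F1 stood alone at 36.2 ± 1.07 CPM per kb, above E2F4 at 21.3 ± 0.262 and E2F2 at 21 ± 0.978, which overlapped each other. In CS and in DMSO E2F2 came first, at 28.5 ± 2.06 and 26.3 ± 2.44 CPM per kb, but overlapped E2F1 in both groups. E2F5 was last in KPT-330, CS and DMSO, at 6.84 ± 0.204, 6.27 ± 0.751 and 5.95 ± 0.359 CPM per kb. The 8 E2F genes summed to 82.9 ± 4.43 CPM per kb in KPT-330+CS, 126 ± 1.33 in KPT-330, 132 ± 8.7 in CS and 129 ± 8.77 in DMSO. The KPT-330+CS libraries, at 77.8 to 86.1, lay below all 9 others. E2F2 made up 13.1% ± 0.358 of that sum in KPT-330+CS and 20.4% ± 0.548 in DMSO, and E2F7 made up 15.1% ± 1.16 in KPT-330+CS and 9.8% ± 1.51 in DMSO. In KPT-330, E2F1, E2F2 and E2F4, the genes of highest GC content, made up 28.7%, 16.6% and 16.8%. Sums and shares were not corrected for GC content, and the KPT-330 libraries had the highest GC slopes.

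Adding CS to KPT-330 lowered E2F8, E2F1, E2F2, E2F3 and RBL1 and raised RBL2, 6 of the 10 genes, against a background of 37.6% of all tested genes called between these groups, 19.7% higher and 17.9% lower. The log2 fold changes of KPT-330+CS against KPT-330 were -1.11 ± 0.06 for E2F8, -0.97 ± 0.13 for E2F1, -0.96 ± 0.07 for E2F2 and -0.45 ± 0.07 for E2F3 (edgeR, adjusted p of 8.09e-08, 7.61e-05, 9.99e-07 and 0.000253). After the GC correction the E2F1 value was -0.62 (adjusted p = 3.82e-06). RBL1 changed by -0.21 ± 0.07 (adjusted p = 0.0348) and RBL2 by 0.22 ± 0.07 (adjusted p = 0.0191). The RBL1 call was lost without KPT-330+CS replicate 1 (-0.15, adjusted p = 0.125) or 2 and without any 1 KPT-330 library, and the RBL2 call without KPT-330+CS replicate 3 (0.16, adjusted p = 0.0943) or KPT-330 replicate 1 or 3. E2F4 gave -0.47 ± 0.17 (adjusted p = 0.0503), passed in 9 of 23 alternatives, and stood at -0.22 (adjusted p = 0.000133) after the GC correction. Libraries of the groups did not overlap for 8 of the 10 genes, against 57.1% of all tested genes.

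Against CS alone, KPT-330+CS was lower for 7 of the 10 genes and higher for none, where 47.8% of tested genes were called, 26.1% higher and 21.7% lower. The largest of these log2 fold changes were -1.40 ± 0.07 for E2F2 and -1.40 ± 0.06 for E2F8 (edgeR, adjusted p of 8.3e-09 and 1.8e-09), and E2F5, E2F7 and RBL2 were not called, at 0.16, -0.15 and 0.13. The split was 5 lower and 2 higher with library size alone, and 8 lower and 2 higher with the GC correction. The E2F4 call was lost in 5 of 23 alternatives, among them leaving out KPT-330+CS replicate 3 (-0.41, adjusted p = 0.073), CS replicate 2 (-0.58, adjusted p = 0.0624) or CS replicate 3 (-0.40, adjusted p = 0.0817). CS against KPT-330, the direct comparison of single drugs named by the study, had 5 genes higher and 1 lower, where 42.8% of tested genes were called, 20.2% higher and 22.6% lower. RBL1, E2F6, E2F2, E2F3 and E2F8 were higher in CS by 0.53 ± 0.07, 0.47 ± 0.06, 0.45 ± 0.07, 0.31 ± 0.07 and 0.28 ± 0.06 on the log2 scale. E2F1 was lower in CS, at -0.46 ± 0.13 (adjusted p = 0.0106), and stood at 0.03 (adjusted p = 0.702) after the GC correction.

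The effect of KPT-330 depended on CS for 4 of the 10 genes. The interaction, the log2 effect of KPT-330 in the presence of CS minus its effect without CS, was -1.16 ± 0.09 for E2F8 (edgeR quasi-likelihood test, adjusted p = 4.24e-06). It was -1.07 ± 0.10 for E2F2 (adjusted p = 3.76e-05), -1.07 ± 0.18 for E2F1 (adjusted p = 0.0019) and -0.40 ± 0.10 for E2F3 (adjusted p = 0.017). For comparison, 14.7% of all tested genes were called for this interaction, 8.04% positive and 6.62% negative. E2F8, E2F2 and E2F1 kept this call in all 22 alternatives, with the E2F1 value at -0.66 after the GC correction. E2F3 lost it without KPT-330 replicate 1 (-0.37, adjusted p = 0.0508) or DMSO replicate 2 (-0.38, adjusted p = 0.0504). The other 6 genes ranged from -0.39 ± 0.25 for E2F4 to 0.07 ± 0.09 for E2F6. With the GC correction 8 of the 10 genes were called, all negative, the exceptions being E2F4 and E2F6.

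**Figure D4:**
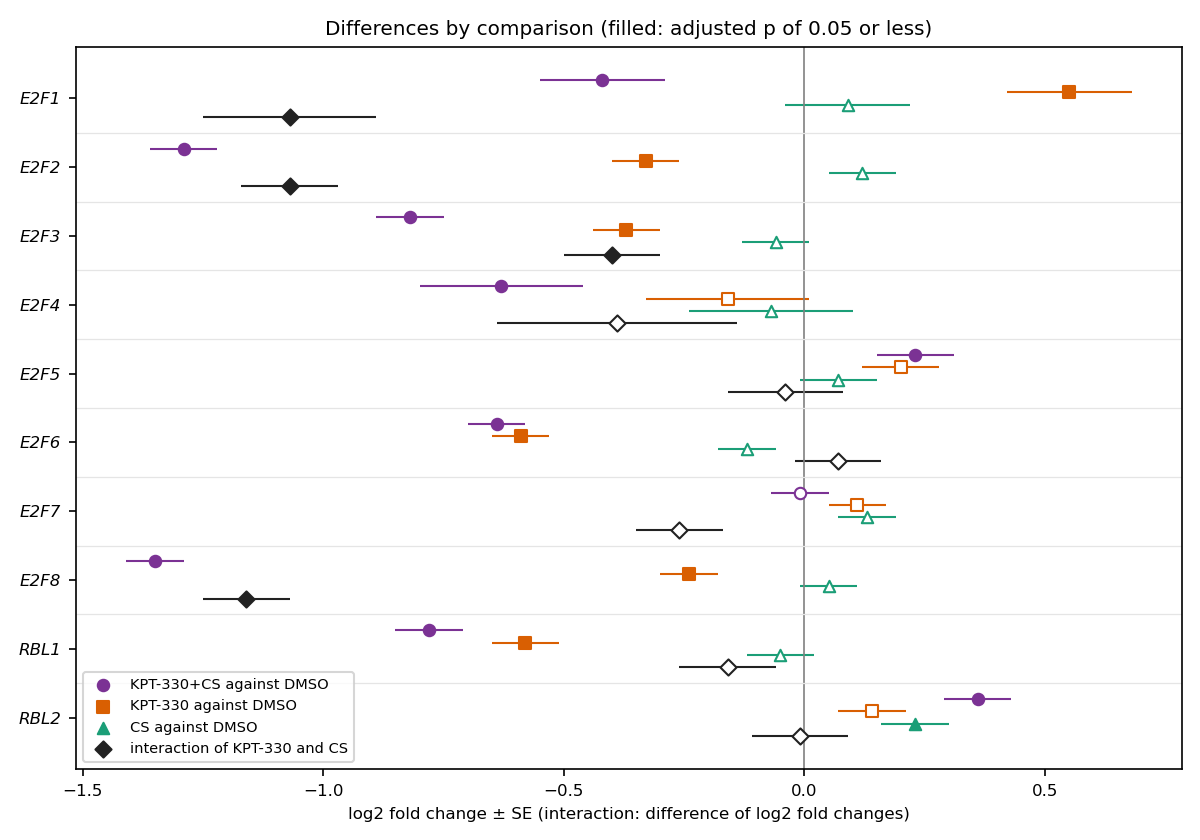
Log2 fold changes with SE for the 10 genes (rows) in KPT-330+CS, KPT-330 and CS against DMSO, with the interaction of the drugs as black diamonds (horizontal axis, log2); filled points passed an adjusted p of 0.05. E2F8 and E2F2 reach -1.35 and -1.29 with KPT-330+CS, E2F1 lies on opposite sides of 0 with KPT-330+CS and KPT-330, and the CS points lie between -0.12 and 0.23.

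The 3 genes with the largest F statistics over the 4 groups were E2F8, E2F2 and RBL1, and other genes had closely similar profiles over the 12 libraries. Likeness was measured as the root mean square difference of centred log2 CPM among 10741 genes. The nearest to E2F8 were DIAPH3, MARCHF1 and ZNF331, at 0.10, 0.11 and 0.12, where the median gene was at 0.58. The nearest to E2F2 were FOXM1, a transcription factor of G2/M genes, then AEN and HIVEP3, at 0.09, 0.10 and 0.11, with a median of 0.56. The nearest to RBL1 were HMGXB4, NUP50 and GPATCH4, each at 0.04, with a median of 0.37. All 9 values describe levels that share libraries, depth and base composition.

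With both drugs 1 of the 2 DP partner genes rose and the other fell. TFDP2 had 87.3, 88 and 95.2 CPM in KPT-330+CS, 97.4, 100 and 92.5 in KPT-330, 35.1, 36 and 31.3 in CS, and 31.7, 33.1 and 37.2 in DMSO. The 6 libraries with KPT-330 were far above the other 6, and the log2 fold changes against DMSO were 1.41 ± 0.07 for KPT-330+CS and 1.51 ± 0.07 for KPT-330 (edgeR, adjusted p of 4.65e-09 and 6.81e-09). The deposited counts list this name under 2 identifiers with overlapping spans, and the second gave 1.71 ± 0.06 and 1.78 ± 0.06, so the split of reads between them is uncertain. The second held more reads, 65225 against 38012 for the one shown. Its interaction was -0.26 ± 0.08 (edgeR, adjusted p = 0.0467), against -0.11 ± 0.10 for the one shown (adjusted p = 0.52). TFDP1 averaged 109 ± 4.49 CPM in KPT-330+CS, 161 ± 2.16 in KPT-330, 155 ± 7.85 in CS and 166 ± 11.5 in DMSO. It fell by 0.61 on the log2 scale with KPT-330+CS (adjusted p = 1.62e-06), gave -0.05 with KPT-330 (adjusted p = 0.551), and had an interaction of -0.46 ± 0.08 (adjusted p = 0.00316).

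Of the MuvB core genes and MYBL2, which replaces the repressive E2F and pocket protein on MuvB in dividing cells, 5 of 6 fell and 1 rose with KPT-330+CS, where 55.5% of all tested genes were called. With KPT-330, 3 fell and 1 rose, where 48.5% were called. The gene that rose was LIN37, named after its values were seen, at 4.68 ± 1.25 CPM in KPT-330+CS, 4.55 ± 0.237 in KPT-330 and 2.3 ± 0.445 in DMSO. MYBL2 averaged 146 ± 32.4 CPM in KPT-330+CS, 330 ± 10.8 in KPT-330, 272 ± 66.7 in CS and 266 ± 86 in DMSO, and its log2 fold change with KPT-330+CS was -0.86 ± 0.22 (edgeR, adjusted p = 0.00452). It had 177, 150 and 112 CPM in KPT-330+CS and 358, 254 and 187 in DMSO. Within KPT-330+CS, CS and DMSO, MYBL2 was higher in libraries of higher GC slope. LIN52 and LIN9, subunits of the core, gave -0.52 ± 0.07 and -0.52 ± 0.10, and RBBP4 gave -0.33 ± 0.07 (adjusted p of 1.54e-05, 0.000575 and 0.00118).

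Upstream of the pocket proteins, 7 of 8 listed cyclin and kinase genes were tested. With KPT-330+CS, 2 fell, 1 rose and 4 were not called, where 26.2% of all tested genes were lower and 29.3% higher. CCNE1 and CDK4 fell, by 0.52 and 0.43 on the log2 scale (edgeR, adjusted p of 0.000339 and 0.000648). CCND2, named after its values were seen, rose to 4.97 ± 0.514 CPM, against 2.04 ± 0.258 in DMSO. CCNE1, one of the cyclin E genes, had 9.05, 9.17 and 9.33 CPM in KPT-330+CS and 15, 12.3 and 12.2 in DMSO. With KPT-330, 3 of 7 rose and none fell, where 24.7% of all tested genes were higher and 23.8% lower. CDK2 rose by 0.20 ± 0.05 (adjusted p = 0.00504), and leaving out DMSO replicate 1 raised the count to 6. Among 5 genes for CDK inhibitors, 1 fell, 1 rose and 3 were not called with KPT-330+CS, against the same 26.2% lower and 29.3% higher. CDKN2D fell by 0.85 (edgeR, adjusted p = 0.00294) and CDKN1B, the p27 gene, rose by 0.18 ± 0.06 (adjusted p = 0.0184). No gene of that list was called higher with DESeq2 size factors, with DESeq2 or without DMSO replicate 2. Of 9 genes of the Polycomb complex that E2F6 joins, 5 fell and 3 rose with KPT-330+CS, where 26.2% of all tested genes were lower and 29.3% higher, with L3MBTL2 at -0.91 ± 0.12, YAF2 at -0.72 ± 0.10, CBX3 at -0.62 ± 0.07 and PCGF6 at -0.53 ± 0.11. Those that rose, RYBP, RING1 and MAX, were named after their values were seen and stood at 0.53 ± 0.07, 0.40 ± 0.15 and 0.37 ± 0.07. KPT-330 alone gave as many in each direction, a total that dropped to 3 called genes without DMSO replicate 3 and to 4 or 5 without KPT-330 replicate 1 or 3 or DMSO replicate 2.

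Genes that E2F proteins are known to drive at G1/S fell with the combination. Of 40 such genes, 38 fell and none rose with KPT-330+CS against DMSO, with a median log2 fold change of -0.78, where 26.2% of all tested genes were lower and their median was 0.04. CLSPN, a checkpoint adaptor, had 37.9, 39.6 and 40.6 CPM in KPT-330+CS and 114, 134 and 143 in DMSO, a log2 fold change of -1.73 ± 0.08 (edgeR, adjusted p = 1.43e-09). RRM2, a subunit of ribonucleotide reductase, had 122, 128 and 140 CPM in KPT-330+CS and 379, 423 and 459 in DMSO, a log2 fold change of -1.69 ± 0.07 (adjusted p = 9.98e-10). CCNA2, the cyclin A gene, gave -1.72 ± 0.09 and CDC45, a part of the replicative helicase, gave -1.50 ± 0.08. The exceptions were CCNE2 at 0.12 ± 0.11 and UNG at -0.06 ± 0.05. This and the other gene lists were chosen with earlier results of these data known. Their counts beside those of all tested genes are therefore descriptions, not independent tests.

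KPT-330 alone split the G1/S genes, with 17 of 40 lower and 7 higher and a median of -0.11, where 23.8% of all tested genes were lower and 24.7% higher. CCNE2, the other cyclin E gene, had 21.9, 19.5 and 21.6 CPM in KPT-330 and 8.89, 10.8 and 12.3 in DMSO. Its log2 fold change was 0.98 ± 0.11 (edgeR, adjusted p = 1.45e-05), while CCNA2, CLSPN and CDC25A gave -0.93 ± 0.09, -0.76 ± 0.08 and -0.49 ± 0.05. After the GC correction 23 were lower and 8 higher. Scaled by library size alone, 10 were lower and 11 higher. That scaling shifts the median of all genes by 0.16 for KPT-330, and by 0.19 for KPT-330+CS, where it left 34 lower and 2 higher. Relative to KPT-330, all 40 genes were lower in KPT-330+CS, where 17.9% of tested genes were lower, and 35 of the 40 had a negative interaction that passed the test, against 6.62% of tested genes. Among the genes with the largest interactions were CDC45 at -1.21 ± 0.11 and RRM2 at -1.02 ± 0.10 (adjusted p of 2.81e-05 and 5.24e-05). With CS alone 8 of 40 fell, CDC25A furthest at -0.35 ± 0.05 (adjusted p = 0.00119), where 5.13% of tested genes were lower. That count was 1 without CS replicate 2 or 3, 2 without DMSO replicate 2 or 3, 4 without CS replicate 1, 16 without DMSO replicate 1, and 23 called, 22 of them lower, after the GC correction.

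Most of the 30 G2/M genes bound by DREAM and MYBL2 with MuvB fell already with KPT-330 alone. With KPT-330+CS 29 fell, at a median of -1.46, and with KPT-330 28 fell, at a median of -0.80, where 26.2% and 23.8% of all tested genes were lower. None was called higher in either comparison, and CDC25B, which passed in neither, stood at -0.18 ± 0.13 with KPT-330+CS (adjusted p = 0.27) and 0.30 ± 0.13 with KPT-330 (adjusted p = 0.0739). CENPA, the centromeric histone, had 13.1, 14.3 and 13.1 CPM in KPT-330+CS, 20.6, 19.5 and 20.9 in KPT-330, 58.1, 57.4 and 54.1 in CS, and 52.5, 56.8 and 57.1 in DMSO. The 6 libraries with KPT-330 lay below the other 6, with log2 fold changes of -2.04 ± 0.07 and -1.45 ± 0.06 against DMSO (edgeR, adjusted p of 5.89e-11 and 2.39e-09). FOXM1, by contrast, gave -0.15 ± 0.07 with KPT-330 (adjusted p = 0.0885) and had an interaction of -1.08 ± 0.10 (adjusted p = 2.65e-05). For 22 of the 30 the interaction was negative and passed the test, against 6.62% of all tested genes. With CS alone 4 fell, CCNB1 by 0.28 and BUB1 by 0.38 among them, where 5.13% of all tested genes were lower. That count was 15 without DMSO replicate 1, 18 after the GC correction, and 0 when the CS and DMSO libraries were fitted alone.

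**Figure D5:**
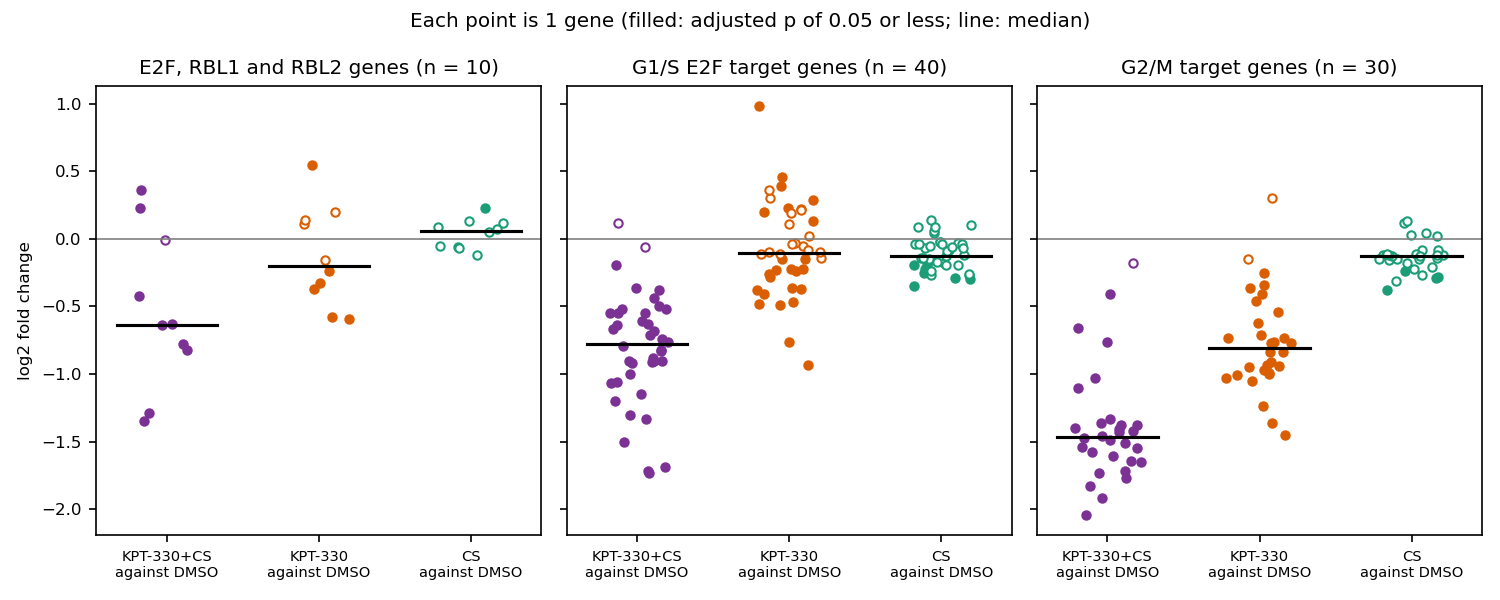
Log2 fold change against DMSO (vertical axis) of each of the 10 E2F and pocket protein genes, 40 G1/S target genes and 30 G2/M target genes, for KPT-330+CS, KPT-330 and CS; filled points passed an adjusted p of 0.05 and lines are medians. The medians for KPT-330+CS lie at -0.64, -0.78 and -1.46, and the G1/S genes with KPT-330 lie on both sides of 0.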

How the data were processed

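Per the series design text, reads of poly(A) RNA libraries were aligned to hg38 with STAR, and the authors deposited raw counts per gene on Ensembl version 78. Neither the counting program nor its strand setting is stated in these sources. Each of the 12 libraries was assigned to its group by its labels. The 10 genes and all gene lists were chosen with earlier results of these data known. The deposited counts were fitted for all 12 libraries in 1 model with edgeR 4.0.16 (R 4.3.3): filterByExpr, TMM scaling, the quasi-likelihood F-test, group as the sole term, and Benjamini-Hochberg adjustment over 19460 genes in each of 7 contrasts, calling genes at 0.05 or less. The SE is the absolute log2 fold change over the square root of F. All 4 groups shared 1 estimate of spread per gene, although their spreads were unequal. The coefficient of variation between libraries, from edgeR's common dispersion within each group, was 11.1% in KPT-330+CS, 2.87% in KPT-330, 11.8% in CS and 15.9% in DMSO. The shared estimate can therefore understate the spread in comparisons without the KPT-330 group. These are CS against DMSO, KPT-330+CS against DMSO and KPT-330+CS against CS. From each list, up to 4 called and 2 uncalled genes per comparison follow a rule of largest change first, with at least 5 CPM for called genes, and some are not repeated. The fitting script was tested on simulated data. GC content and overlaps come from GENCODE 44, which held 56105 of 64253 identifiers, 99.92% in the same place. Motifs were sought in RefSeq windows on GRCh38.p14. In all, 23 alternatives were run, including DESeq2 1.42.0 and limma 3.58.1. MARCHF1 is named by its identifier because the table shows a date.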

Additional observations from a re-analysis of the deposited data

Results flagged for a closer look

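The effect of KPT-330 on E2F8 differed between cells with and without CS by -1.16 on the log2 scale, as tested by the interaction term. E2F2 and E2F1 differed in the same way, each by -1.07, and E2F3 by -0.40. The log2 fold changes of KPT-330+CS against CS were -1.40 for E2F8, -1.40 for E2F2, -0.52 for E2F1 and -0.76 for E2F3. Those of KPT-330 against DMSO were -0.24, -0.33, 0.55 and -0.37. After the GC correction the E2F1 interaction was -0.66, and its KPT-330 effect without CS was 0.00 (edgeR, adjusted p = 0.981).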

How the results depend on the processing

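The fold changes of the 10 genes in 7 contrasts were recomputed under 23 alternatives. Of these values, 1491 either kept a call in the same direction or stayed uncalled. Another 52 lost and 55 gained a call, and 2 reversed with a call before or after. Uncalled values that changed sign count among the 1491, as for E2F4 with CS against DMSO, at -0.07 and from -0.22 to 0.11 in the alternatives. E2F7 with KPT-330+CS against DMSO became 0.17 with library size alone, and E2F1 with CS against KPT-330 became 0.03 with the GC correction; library size alone shifts the median of all genes by 0.19 in the first comparison, and for the other the cause was not tested. The count of the 10 genes called for CS against DMSO, 1 as reported, was 0 with DESeq2 size factors, DESeq2, limma voom or the compared groups alone, 2 with library size alone, 3 with the GC correction and 0 to 2 when 1 library was left out. The interaction count of 4 was 8 with the GC correction. Over all genes, CS against DMSO called 1729, but 249 with the compared groups alone, 4564 with the GC correction and 760 without CS replicate 2; the interaction called 2853, but 5122 with the GC correction, 4711 without DMSO replicate 1 and 1713 when KPT-330 replicate 3 was left out. Split by direction, KPT-330 against DMSO had 4 of the 10 genes higher and 3 lower with library size alone, and 3 higher and 6 lower with the GC correction.

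Replicate numbers are shared by the groups but did not pair libraries: correlations of deviations ran from -0.38 to 0.4, and 3 of 12 libraries correlated best with their own number. The GC slope fell from replicate 1 to 3 in KPT-330+CS and DMSO and rose in CS. For replicates 1 and 3, KPT-330+CS and DMSO correlated at 0.36 and 0.4, and CS correlated with these groups at -0.29 to -0.38. A replicate block called 0 of the 10 genes for CS against DMSO and 1036 genes in all. The block with GC correction was not run. The 10 genes had at least 877 reads each in every library.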
